A study of Rattus norvegicus with 58 samples.

Results

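The 6 genes of glycolysis and the hypoxia response followed here were Hif1a (ENSRNOG00000008292), Slc2a1 (ENSRNOG00000007284), Hk2 (ENSRNOG00000006116), Pfkfb3 (ENSRNOG00000018911), Ldha (ENSRNOG00000013009) and Vegfa (ENSRNOG00000019598). They were picked by identifier out of 16879 genes in the table, with earlier results of these data known. The set was therefore not chosen blind to the data. All 6 were found and passed the filter on low values, as did 13062 genes in all. The symbols come from the definition of the set, since the table itself holds identifiers without names. RNA of synovial tissue, the lining of the joint, was sequenced from rats with pristane-induced arthritis (PIA) and from rats without it. Female DA/OlaHsd rats aged 6 to 8 weeks were injected with 250 µl of pristane, an oil that provokes joint inflammation, and the day after each rear limb had scored 3 or more was counted as the start. From then RTD-1, a cyclic peptide (rhesus theta-defensin 1), was given under the skin at 5 mg/kg in saline, or saline was given alone, for 1, 3 or 5 days. The arthritic groups were untreated PIA (n = 4), saline for 1 day (n = 4), 3 days (n = 8) and 5 days (n = 8), and RTD-1 for 1 day (n = 4), 3 days (n = 8) and 5 days (n = 8). Without arthritis there were 4 libraries of untreated naive rats, and 5 each of healthy rats that had RTD-1 over 3 or 5 days; no healthy group had saline. The strain, sex and age are those the labels give for the arthritis model. The labels do not say which library came from which animal. A p-value thus reflects how far libraries lay apart within groups, pooled for each gene over all groups, and that spread may be technical.

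HIF-1 is a transcription factor made of a steady partner and the oxygen-regulated subunit encoded by Hif1a. When oxygen is present the subunit is hydroxylated and destroyed, so its activity is set largely at the protein level, which RNA does not show. When oxygen falls it enters the nucleus, binds a short core motif and raises genes for glucose uptake, glycolysis, lactate production and blood vessel growth. Inflamed synovium is known as a tissue that is both poorly oxygenated and highly glycolytic.

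The promoters are shown because HIF-1 is known to act on several of these genes, and they let a reader see where its core motif is written. The core was searched as ACGTG or GCGTG on both strands in the 250 bases before each start site in RefSeq (build GRCr8), so that it also reads as CACGT or CACGC on the printed strand, and a palindromic CACGTG counts on each strand. All 6 genes had a promoter in that table, 4 of them held at least 1 core, and 36.7% of all 33469 windows did. Each stretch below runs 5′ to 3′ on the plus strand with the cores in capitals. Ldha, with 4 cores, is shown at chr1:106507993-106508091. Slc2a1, with 4 cores, is shown at chr5:138002357-138002521. Hif1a itself, with 3 cores, is shown at chr6:98359657-98359750, and Pfkfb3, with 2 cores from 1 palindrome, at chr17:71944879-71944908. The windows of Hk2 and Vegfa held none of these letters.
Ldha: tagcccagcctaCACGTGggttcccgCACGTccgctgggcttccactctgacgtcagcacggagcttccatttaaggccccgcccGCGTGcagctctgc
Slc2a1: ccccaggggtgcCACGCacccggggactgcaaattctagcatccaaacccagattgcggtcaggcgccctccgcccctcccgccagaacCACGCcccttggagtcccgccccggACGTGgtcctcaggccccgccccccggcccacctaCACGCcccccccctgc
Hif1a: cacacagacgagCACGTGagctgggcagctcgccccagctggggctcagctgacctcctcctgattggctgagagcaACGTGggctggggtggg
Pfkfb3: cacccttctctcCACGTGaaagggggctgg

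Levels are given as normalized reads, that is whole reads brought to the depth of a library with the median deposited factor, 5.75 megareads. A library held between 464693 and 7716834 reads in genes, and the 6 genes held between 20 and 6586 reads in any library. A factor of 10 megareads or more was found in 13 libraries, namely all 10 of healthy RTD-1 rats and 3 of saline rats (1 on each day). Because gene length is not taken into account, levels are compared between groups and not between genes. A gene is called when its Benjamini-Hochberg adjusted p in limma, taken over all 13062 genes, is under 0.05. In bulk tissue, fewer cells of a type and less RNA per cell cannot be told apart, and marker lists of the cell types in the joint were not analysed here because no identifier could be paired with a symbol. For the same reason the synovial label was not checked against markers, and other genes of the pathway are not counted.

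In untreated arthritis 5 of the 6 genes were called against naive synovium, and not all in 1 direction. Hif1a, Hk2 and Ldha rose, Pfkfb3 and Vegfa fell, and Slc2a1 did not pass the test. Over all genes tested, 27.8% were called higher and 11.4% lower in this comparison. The median of all genes was higher in PIA by 0.28 on the log2 scale with the deposited scaling and lay at -0.0025 when scaling factors were computed from the reads by the trimmed mean of M values (TMM). TMM values are therefore given as the changes relative to that shift. The share of the deposited factor that fell in genes was 28.5% to 41.6% in the naive and 40.3% to 49.7% in the PIA libraries, and its part in the result was not tested.

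Hif1a, the oxygen-regulated subunit, stood at 356, 375, 635 and 332 normalized reads in naive replicates 1 to 4. In untreated PIA it stood at 2433, 2080, 1937 and 1914. The lowest arthritic library was above the highest naive one by a wide margin, with means of 424 ± 141 (SD, n = 4) and 2091 ± 239 (SD, n = 4). The change was 2.34 on the log2 scale (SE 0.29; limma, Benjamini-Hochberg adjusted p = 2.15e-09), or 2.05 with TMM factors, and 96.1% of all genes had a lower fold change. The same share was 93.8% for Hk2, 83.8% for Ldha, 68.2% for Slc2a1, 18.4% for Vegfa and 8.46% for Pfkfb3.

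Slc2a1 encodes the glucose carrier GLUT1, through which glucose enters the cell. It stood at 70.2, 39.4, 85.8 and 84.4 normalized reads in naive and at 123, 92.4, 78.0 and 127 in PIA libraries. PIA replicate 3 lay inside the naive range and the other three above it. The estimate of 0.61 (SE 0.42) had a 95% interval from -0.22 to 1.45 on the log2 scale and was not called (limma, Benjamini-Hochberg adjusted p = 0.247), and it was 0.32 with TMM factors.

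Hk2 encodes hexokinase 2, which traps glucose in the cell by phosphorylating it. Naive libraries held 129, 87.4, 88.8 and 88.5 normalized reads and PIA libraries 353, 388, 359 and 350.1. The arthritic libraries were tightly grouped and did not overlap with the naive ones. Hk2 rose by 1.89 on the log2 scale (SE 0.37), a 3.70-fold change (limma, Benjamini-Hochberg adjusted p = 5.78e-05), or 1.60 with TMM factors.

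Pfkfb3 makes fructose 2,6-bisphosphate, the strongest known activator of the committed step of glycolysis. It went the other way, from 1145, 1408, 857 and 692 normalized reads in naive to 396, 523, 276 and 355 in PIA libraries. The highest arthritic library was below the lowest naive one. The change was -1.39 on the log2 scale (SE 0.28; limma, Benjamini-Hochberg adjusted p = 5.87e-05), 2.62-fold lower, and -1.68 with TMM factors.

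Ldha encodes the lactate dehydrogenase subunit that favours making lactate from pyruvate. Naive libraries held 172, 261, 366 and 239 normalized reads and PIA libraries 578, 631, 348 and 595. PIA replicate 3 was below naive replicate 3, so the groups overlapped, although they did not with TMM factors. Ldha rose by 1.06 on the log2 scale (SE 0.28; limma, Benjamini-Hochberg adjusted p = 0.00201), or 0.77 with TMM factors.

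Vegfa encodes the growth factor that drives the sprouting of blood vessels and is a classic target of HIF-1. Its level was 501, 574, 567 and 391 normalized reads in naive and 416, 373, 231 and 417 in PIA libraries. The groups overlapped, with naive replicate 4 inside the PIA range, and did not overlap with TMM factors. The change was -0.52 on the log2 scale (SE 0.21; limma, Benjamini-Hochberg adjusted p = 0.0391), or -0.82 with TMM factors. This call was not made in a fit of only the PIA and naive groups (adjusted p = 0.0566) or without naive replicate 1 (0.0656), 2 (0.109) or 3 (0.0899) or PIA replicate 2 (0.0526) or 3 (0.234, with a change of -0.32).

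**Figure D1:**
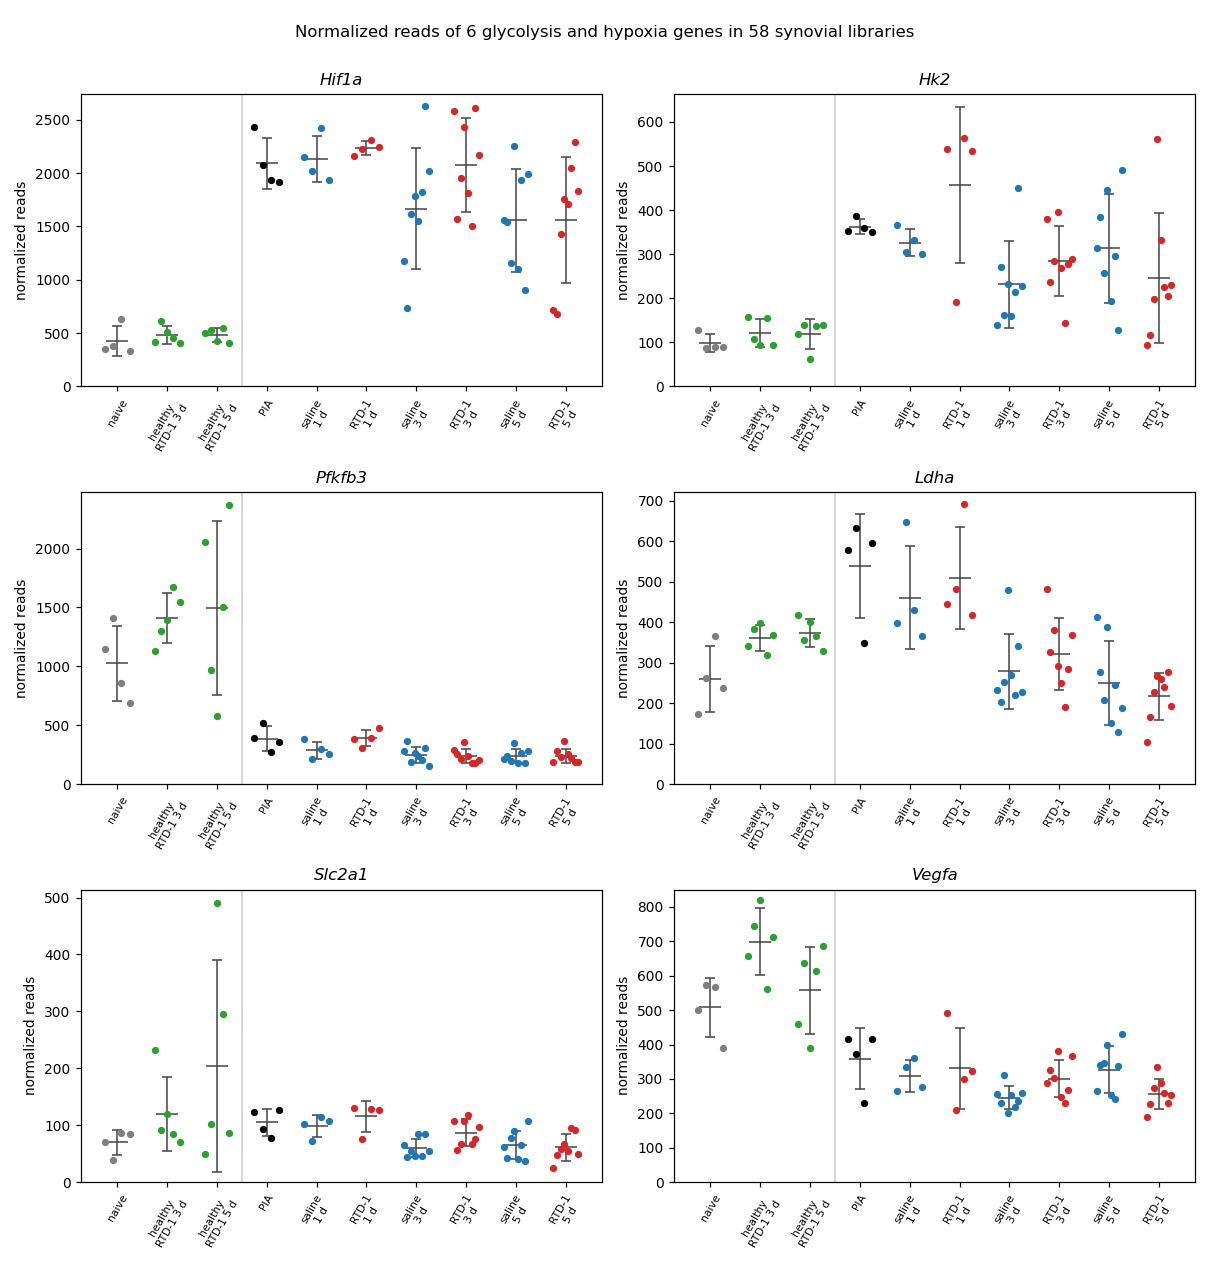
Normalized reads (linear axis from 0) of the 6 genes in each of the 58 libraries, by group, with groups without arthritis to the left of the grey line. Points are libraries in order of replicate number, and bars are mean ± SD; Hif1a and Pfkfb3 separate the groups to the left of the line from those to the right without overlap, and the other genes do not.

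The same question was asked in libraries that entered neither group above, by setting arthritic RTD-1 rats against healthy RTD-1 rats at the same duration. Hif1a and Hk2 were again higher and Pfkfb3 and Vegfa lower, on both days, while Ldha was not higher. On day 3, 4 of the 6 genes were called, 2 higher and 2 lower, where 16.8% of all genes were called higher and 30.6% lower. On day 5 all 6 were called, 2 higher and 4 lower, where 10.7% of all genes were called higher and 33.6% lower. The 10 healthy libraries had factors of 11.1 to 17.5 megareads and the 16 arthritic ones 1.71 to 8.19, so depth and arthritis cannot be told apart here. The median of all genes was -0.20 on day 3 and -0.32 on day 5 with the deposited scaling and -0.042 and -0.022 with TMM factors. Several genes below are described as lying apart without overlap, and the share of all genes that did so was not counted for these comparisons.

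Hif1a in healthy RTD-1 rats was 418, 609, 507, 458 and 409 normalized reads on day 3 and 497, 529, 428, 551 and 406 on day 5. In arthritic RTD-1 rats it ran from 1500 through a median of 2062 to 2612 on day 3 and from 677 through 1736 to 2290 on day 5. No arthritic library reached down to the healthy range, though replicates 1 and 2 of day 5, at 712 and 677, came near it. The changes were 2.10 (SE 0.23) and 1.58 (SE 0.23) on the log2 scale (limma, Benjamini-Hochberg adjusted p = 5.44e-11 and 1.58e-07), or 2.26 and 1.89 with TMM factors. A lower fold change than that of Hif1a was found in 96.5% and 95.9% of all genes.

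Hk2 was 158, 107, 94.6, 155 and 94.4 normalized reads in the healthy day 3 group and 119, 140.0, 61.4, 136 and 139 in the healthy day 5 group. Its arthritic counterparts ran from 145 through a median of 282 to 396 on day 3 and from 94.0 through 215 to 562 on day 5. The ranges overlapped on both days. The changes were 1.20 (SE 0.30) and 0.89 (SE 0.30) on the log2 scale (limma, Benjamini-Hochberg adjusted p = 0.00089 and 0.0138), or 1.37 and 1.20 with TMM factors. The call of Hk2 on day 5 was not made without healthy replicate 3, the lowest of its group (0.67, adjusted p = 0.0843), in a fit of only the groups compared (adjusted p = 0.058) or with replicates 1 to 4 only (0.71, adjusted p = 0.0934).

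Pfkfb3 was 1134, 1300, 1397, 1675 and 1549 normalized reads in the healthy day 3 group, and 2054, 968, 578, 1502 and 2372 in the healthy day 5 group. Arthritic RTD-1 libraries ran from 178 through a median of 229 to 357 on day 3 and from 186 through 224 to 370.0 on day 5. Every arthritic library was below every healthy one, including healthy day 5 replicate 3 at 578. The changes were -2.57 (SE 0.22), 5.93-fold lower, and -2.50 (SE 0.22), 5.64-fold lower (limma, Benjamini-Hochberg adjusted p = 3.22e-14 and 2.43e-13), or -2.41 and -2.19 with TMM factors. A lower fold change than that of Pfkfb3 was found in 4.02% and 2.98% of all genes.

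Vegfa was 658, 745, 819, 562 and 713 normalized reads in healthy rats on day 3 and 460.2, 637, 390.4, 615 and 687 on day 5. Arthritic libraries ran from 229 through 295 to 382 on day 3 and from 188 through 255 to 334 on day 5. The groups did not overlap on either day. Vegfa fell by 1.22 (SE 0.17) and by 1.11 (SE 0.17) on the log2 scale (limma, Benjamini-Hochberg adjusted p = 1.62e-08 and 2.92e-07), or by 1.06 and 0.80 with TMM factors. A lower fold change than that of Vegfa was found in 13.9% and 14.3% of all genes. How many of all genes lay apart without overlap was not counted.

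Ldha in healthy RTD-1 rats was 341, 383, 399, 318 and 368 normalized reads on day 3 and 417, 356, 399, 365 and 328 on day 5. Arthritic libraries ran from 192 through 309 to 481 on day 3 and from 105 through 234 to 277 on day 5, where all 8 lay below all 5 healthy ones. The day 3 difference was -0.21 (95% interval -0.67 to 0.24) and not called, and on day 5 Ldha fell by 0.83 (SE 0.23) on the log2 scale (limma, Benjamini-Hochberg adjusted p = 0.00234). With TMM factors these values were -0.049 and -0.53. On day 5 a lower fold change than that of Ldha was found in 21.8% of all genes. Ldha is the gene that was higher in untreated PIA than in naive synovium. Slc2a1 differed by -0.36 (95% interval -1.04 to 0.31) on day 3, which was not called. With TMM factors Slc2a1 was at -0.20 on day 3 and -1.03 on day 5. On day 5 it fell by 1.33 (SE 0.34; limma, Benjamini-Hochberg adjusted p = 0.00114), where healthy replicates 3 and 4 held 491 and 296 normalized reads and the other healthy libraries 48.6, 101 and 85.7. Of those 3, the library at 101 was just above the arthritic range of 23.9 to 95.6 and the others inside it. With arthritic replicates 5 to 8 only, Slc2a1 was not called (-1.04, adjusted p = 0.0528).

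**Figure D2:**
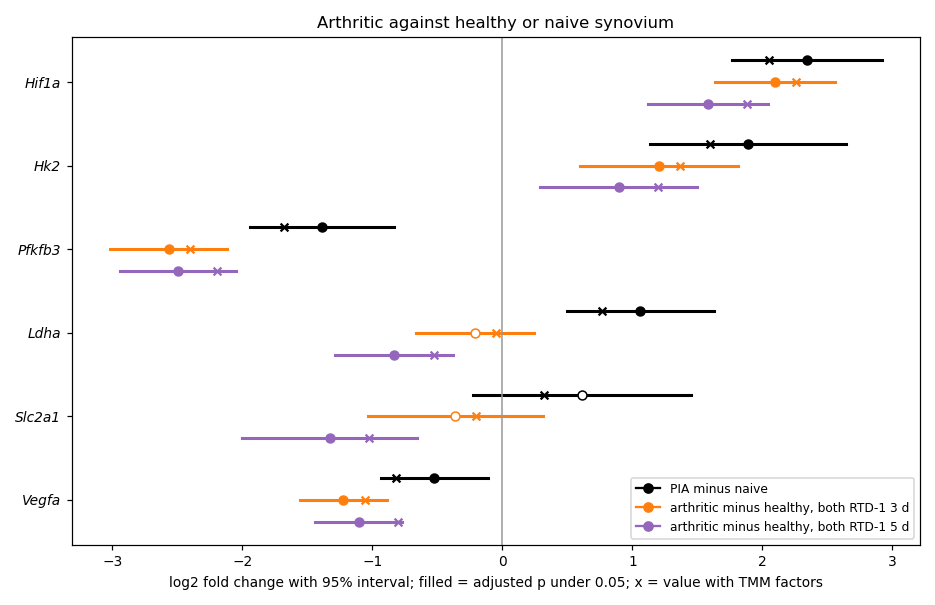
Log2 fold change (horizontal axis) of each gene in untreated PIA against naive synovium and in arthritic against healthy RTD-1 rats on days 3 and 5, with 95% intervals; filled points have an adjusted p under 0.05 and crosses give the value with TMM factors. Hif1a and Hk2 lie to the right and Pfkfb3 and Vegfa to the left of 0 in all 3 comparisons, whereas Ldha changes sides.

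Over all libraries, Hif1a and Pfkfb3 split the 44 arthritic from the 14 healthy and naive libraries without overlap, both with the deposited scaling and with TMM factors. Hif1a ran from 677 to 2626 normalized reads in the arthritic and from 332 to 635 in the other libraries. Pfkfb3 ran from 155 to 523 in the arthritic and from 578 to 2372 in the others. Among all genes tested, 1.17% were higher and 2.25% lower without overlap. Between untreated PIA and naive alone, 22.3% of genes were higher and 10.5% lower without overlap, among them Hif1a and Hk2 above and Pfkfb3 below.

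Ratios of reads within a library do not depend on any scaling between libraries, and these pairs were chosen after their values were seen, so they are given as a description. There were 6.39 ± 2.06 (SD, n = 44) Hif1a reads per Vegfa read in arthritic libraries, from 2.67 to 11.2. In the healthy and naive libraries there were 0.806 ± 0.189 (SD, n = 14), from 0.574 to 1.12. The lowest arthritic library was above the highest of the others. Hk2 reads per Pfkfb3 read were 1.10 ± 0.322 (SD, n = 44) in arthritic libraries, from 0.415 to 1.74. In the others they were 0.0934 ± 0.0302 (SD, n = 14), from 0.0581 to 0.145. Each pair holds a gene that split these libraries without overlap by itself, Hif1a or Pfkfb3, and ratios of other pairs were not computed. The lowest of the arthritic Hk2 ratios belonged to the group given RTD-1 for 5 days and the lowest of the Hif1a ratios to the group given saline for 5 days.

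**Figure D3:**
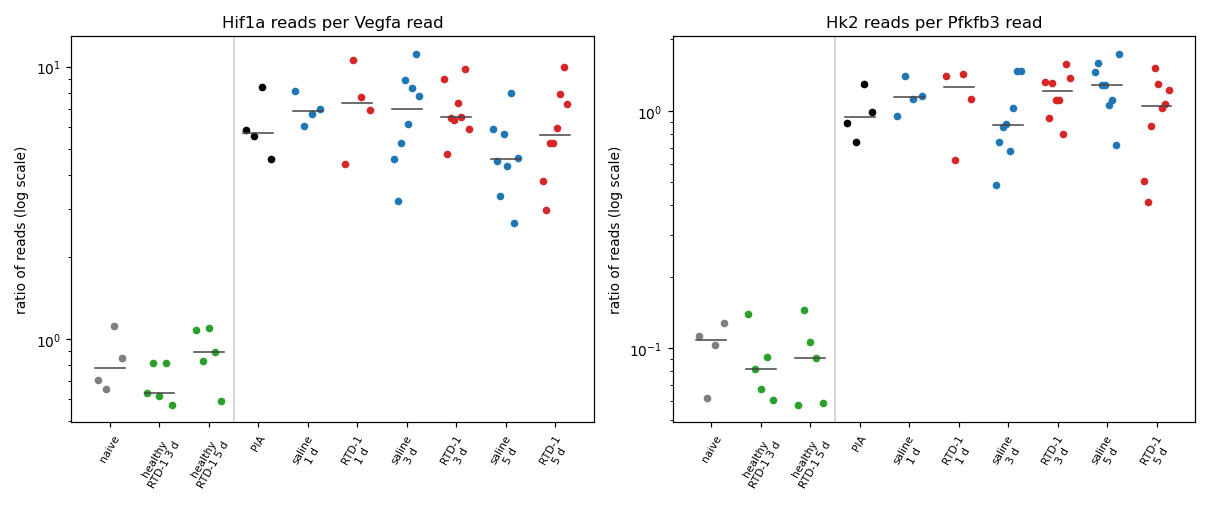
Reads of Hif1a per read of Vegfa (left) and of Hk2 per read of Pfkfb3 (right) in each of the 58 libraries, on a log axis, by group; points are libraries and bars are group medians. In both panels all 44 arthritic libraries (from 2.67 and from 0.415) sit above all 14 healthy and naive ones (up to 1.12 and up to 0.145). The pairs were chosen after their values were seen, and Hif1a and Pfkfb3 each split these libraries alone.

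The course from untreated arthritis was followed in each arm by comparison with the 4 PIA libraries, which all of these comparisons share. Ldha was lower on day 5 in both arms, and no gene was called on day 1 or day 3. The background was 0% of genes called on day 1 in either arm, 0.0153% on day 3 with saline and 0.00766% on day 3 with RTD-1. On day 5, 1 of the 6 genes was called lower with saline, where 7.09% of all genes were, and 2 of 6 with RTD-1, where 11.3% were. The median of all genes was -0.22 and -0.24 in the day 5 comparisons with the deposited scaling and -0.0051 and 0.011 with TMM factors.

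Ldha in the saline arm was 397, 648, 431 and 366 normalized reads on day 1, ran from 203 through a median of 243 to 481 on day 3, and from 129 through 226 to 413 on day 5. With RTD-1 it was 445, 483, 693 and 417 on day 1, ran from 192 through 309 to 481 on day 3, and from 105 through 234 to 277 on day 5. By day 5, 6 of 8 saline and all 8 RTD-1 libraries were in or below the naive range of 172 to 366, and none of the RTD-1 libraries reached the lowest PIA library at 348. Ldha fell by 1.17 (SE 0.24) with saline and by 1.33 (SE 0.24) with RTD-1 on the log2 scale (limma, Benjamini-Hochberg adjusted p = 0.00285 and 0.00105), or by 0.96 and 1.06 with TMM factors.

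On day 3 Ldha differed from PIA by -0.97 with saline (limma, Benjamini-Hochberg adjusted p = 0.0831) and by -0.75 with RTD-1 (0.483), which was called with replicates 5 to 8 only (-0.98, adjusted p = 0.0213). The saline value was called without PIA replicate 3 (-1.16, adjusted p = 0.0246), without day 3 saline replicate 4 (-1.09, adjusted p = 0.0328) and with TMM factors (-0.82, adjusted p = 0.0406). The saline library of high depth held the most Ldha of its group on each day, with 648, 481 and 413 normalized reads. Without those 3 libraries the saline change was -1.09 on day 3 (adjusted p = 0.0211) and -1.29 on day 5 (adjusted p = 0.000684). With replicates 1 to 4 only, the day 5 saline change was -0.76 and not called (adjusted p = 0.147), and with replicates 5 to 8 only it was -1.59 (adjusted p = 2.12e-05).

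Pfkfb3, already low in PIA, was lower still on day 5 with RTD-1, by 0.69 on the log2 scale (limma, Benjamini-Hochberg adjusted p = 0.0486). With saline the difference was -0.69 as well (adjusted p = 0.0578) and not called, but it was called without PIA replicate 3 (-0.84, adjusted p = 0.0328), without saline replicate 4 (-0.77, adjusted p = 0.0248) and with replicates 5 to 8 only (-0.76, adjusted p = 0.0449). The RTD-1 value became -0.42 with TMM factors (adjusted p = 0.293). It was not called without any 1 of PIA replicates 1, 2 and 4 (adjusted p = 0.117, 0.219 and 0.0989) or of RTD-1 replicates 1, 2, 3, 5, 6, 7 and 8 (0.0901, 0.0523, 0.0633, 0.0519, 0.0596, 0.0664 and 0.079). Without RTD-1 replicate 4, the group's highest in Pfkfb3, Hk2 and Vegfa, 4 genes were called lower than PIA, Hk2 (-0.96, adjusted p = 0.0298) and Vegfa (-0.52, adjusted p = 0.0447) among them.

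Hif1a, Hk2, Slc2a1 and Vegfa were not called against PIA on any day with all libraries weighted equally. Hif1a differed on day 5 by -0.48 with saline (95% interval -0.98 to 0.015) and by -0.54 with RTD-1 (-1.03 to -0.039). With RTD-1 it was called in replicates 1 to 4 only (-0.99; limma, Benjamini-Hochberg adjusted p = 0.00548) and stood at -0.086 in replicates 5 to 8 (adjusted p = 0.860). With saline it was -0.39 in replicates 1 to 4 (adjusted p = 0.446) and was called in replicates 5 to 8 (-0.57, adjusted p = 0.0399). Hk2 differed by -0.32 (-0.97 to 0.33) and by -0.76 (-1.41 to -0.11), and Slc2a1 by -0.74 (-1.46 to -0.015) and by -0.85 (-1.57 to -0.13). Vegfa differed by -0.12 (-0.48 to 0.24) with saline and by -0.46 (-0.82 to -0.11) with RTD-1, and the RTD-1 value was called without PIA replicate 3 (-0.66, adjusted p = 0.0148). It was also called with all libraries under array weights, which let libraries count unequally (-0.47, adjusted p = 0.0379). On day 3 with saline, Vegfa was called in 1 of 16 settings (adjusted p = 0.0403). These estimates were all below 0 with the deposited scaling, as was the median of all genes. With TMM factors the day 5 differences with saline and with RTD-1 were -0.26 and -0.27 for Hif1a, -0.10 and -0.49 for Hk2, -0.52 and -0.59 for Slc2a1, and 0.095 and -0.20 for Vegfa.

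**Figure D4:**
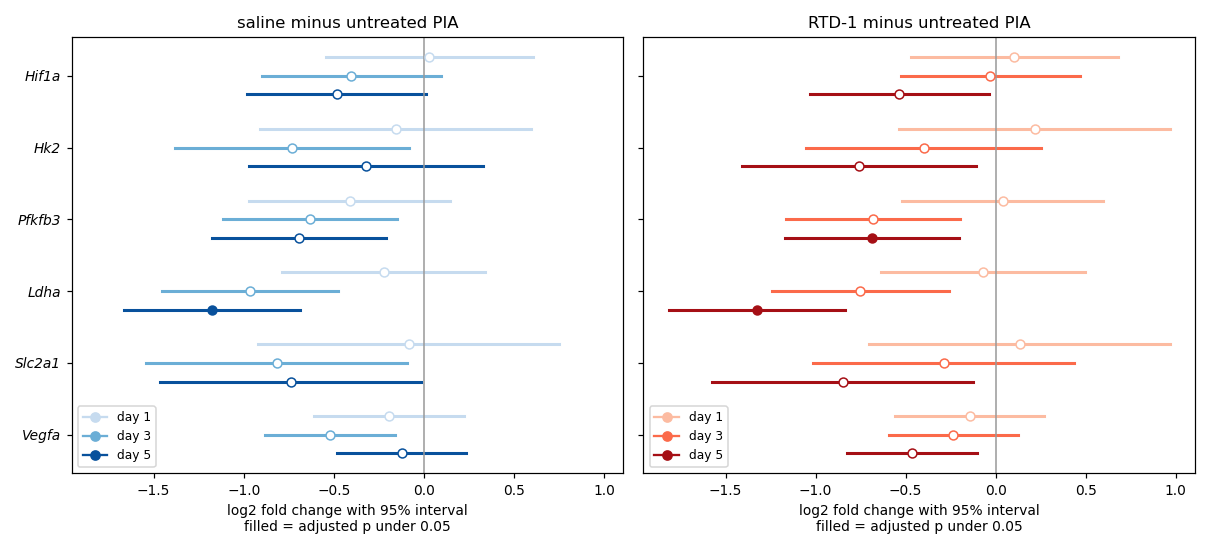
Log2 fold change (horizontal axis) of each gene against untreated PIA on days 1, 3 and 5, with 95% intervals, for saline (left) and RTD-1 (right); filled points have an adjusted p under 0.05. Ldha moves furthest from 0, to -1.17 with saline and -1.33 with RTD-1 on day 5.

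Set against naive synovium, day 5 still showed the arthritic pattern in 4 of the 6 genes in each arm. Both arms share the naive libraries as the control. The pattern of untreated PIA was defined against the same libraries, so agreement in direction is partly built in. Hif1a and Hk2 were called higher and Pfkfb3 and Vegfa lower. The background with saline was 16.5% of genes higher and 10.7% lower, and with RTD-1 14.5% higher and 11.1% lower. Hif1a differed by 1.86 with saline and 1.81 with RTD-1, and Hk2 by 1.57 and 1.13 (limma, Benjamini-Hochberg adjusted p = 2.80e-08, 6.34e-08, 0.000154 and 0.00656). Pfkfb3 differed by -2.08 and -2.07, and Vegfa by -0.65 and -0.99 (adjusted p = 6.97e-10, 8.81e-10, 0.0044 and 1.76e-05). Ldha was not called, at -0.11 (95% interval -0.60 to 0.38) with saline and -0.27 (-0.75 to 0.22) with RTD-1. Slc2a1 was not called either, at -0.13 (-0.85 to 0.60) and -0.24 (-0.96 to 0.49). Hk2 with RTD-1 was not called with replicates 1 to 4 only (0.94, adjusted p = 0.0614).

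RTD-1 was compared with saline in arthritic rats treated for the same time, and none of the 6 genes was called on day 1, 3 or 5 or in the mean of the 3 days. Few genes of any kind were, with 0% of all genes on day 1, 0.00766% on day 3, 0% on day 5 and 0% for the mean. At an unadjusted limma p under 0.05 there were 612, 1010, 470 and 760 genes, and among the 6 there were 0, 0, 1 and 0. The 6 estimates on day 1 ran from 0.048 for Vegfa to 0.45 for Pfkfb3, and the median of all genes was 0.16 that day. With TMM factors the day 1 estimates ran from -0.11 for Vegfa to 0.29 for Pfkfb3.

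On day 3, Hif1a ran from 732 through a median of 1704 to 2626 normalized reads with saline and from 1500 through 2062 to 2612 with RTD-1. The ranges overlapped, and 6 of 8 RTD-1 libraries lay above the saline mean. The difference was 0.37 on the log2 scale (95% interval -0.034 to 0.78). Slc2a1 ran from 44.8 through 54.6 to 84.9 with saline and from 56.1 through 86.3 to 117 with RTD-1. Here 7 of 8 RTD-1 libraries were above the saline mean, with a difference of 0.53 (-0.062 to 1.12). Hk2 ran from 138 through 221 to 449 with saline against 145, 282 and 396 with RTD-1, with a difference of 0.33 (-0.20 to 0.86). Vegfa ran from 199.8 through 244 to 310.1 against 229, 295 and 382, and 7 of 8 RTD-1 libraries were above the saline mean, with a difference of 0.29 (-0.0081 to 0.58). Ldha differed by 0.21 (-0.18 to 0.61) and Pfkfb3 by -0.049 (-0.44 to 0.34). No lower limit of these intervals was above 0.

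On day 5, Vegfa ran from 243 through a median of 340.2 to 429.9 normalized reads with saline and from 188 through 255 to 334 with RTD-1. The ranges overlapped, and 7 of 8 RTD-1 libraries lay below the saline mean. The difference was -0.34 (95% interval -0.63 to -0.049; limma, Benjamini-Hochberg adjusted p = 0.998). Hk2 ran from 127 through 304 to 492 with saline against 94.0, 215 and 562, with a difference of -0.44 (-0.97 to 0.094). Hif1a ran from 905 through 1552 to 2256 against 677, 1736 and 2290, with a difference of -0.054 (-0.46 to 0.35). Ldha differed by -0.15 (-0.55 to 0.25), Slc2a1 by -0.11 (-0.70 to 0.48) and Pfkfb3 by 0.0053 (-0.39 to 0.40). All of these intervals but that of Vegfa spanned 0.

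The groups of 8 were also split into replicates 1 to 4 and 5 to 8, as numbered in the titles. The estimates of both sets are given side by side, and whether they differ was not tested. On day 3 the differences in replicates 1 to 4 were 0.74 for Hif1a, 0.71 for Hk2, 0.64 for Slc2a1, 0.40 for Ldha, 0.39 for Vegfa and 0.035 for Pfkfb3. In replicates 5 to 8 they were 0.0072, -0.043, 0.42, 0.028, 0.18 and -0.13 in the same order. On day 5 the differences in replicates 1 to 4 were -0.59 for Hif1a, -0.87 for Hk2, -0.49 for Slc2a1, -0.77 for Ldha, -0.42 for Vegfa and 0.077 for Pfkfb3. In replicates 5 to 8 they were 0.49, -0.0065, 0.27, 0.47, -0.26 and -0.066. Vegfa kept its sign in both sets on both days, and none of these values was called. The labels do not say what the numbers stand for.

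The change of the treatment difference between days was tested directly, and none of the 6 genes was called. The background was 0.00766% of genes for day 3 minus day 1, 0% for day 5 minus day 1 and 0% for day 5 minus day 3. Between days 3 and 5 the treatment difference of Vegfa changed by -0.63 (95% interval -1.04 to -0.21; limma, Benjamini-Hochberg adjusted p = 0.454). That of Hk2 changed by -0.77 (-1.52 to -0.020; adjusted p = 0.695). For Hif1a it was -0.43 (-1.0 to 0.15), which in replicates 1 to 4 only was -1.33 (adjusted p = 0.0434) and in replicates 5 to 8 only 0.48 (adjusted p = 0.413).

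**Figure D5:**
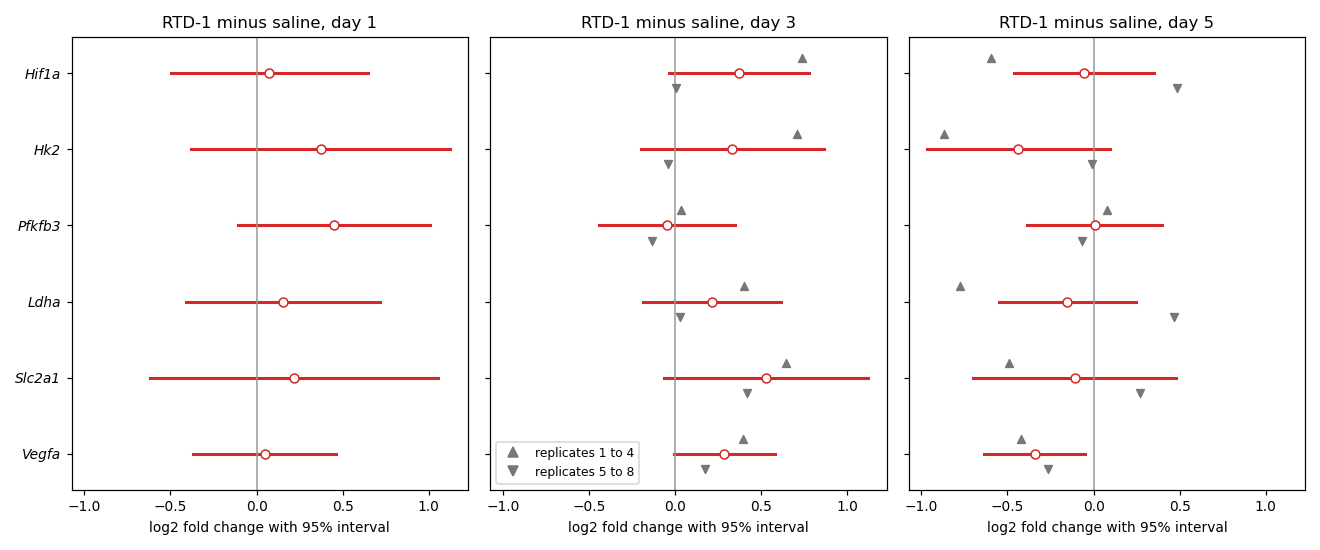
RTD-1 minus saline in arthritic rats as log2 fold change (horizontal axis) of each gene on days 1, 3 and 5, with 95% intervals; open points were not called, and grey triangles give the value in replicates 1 to 4 and in replicates 5 to 8. On day 5 the triangles of Hif1a and Ldha lie on opposite sides of 0, at -0.59 and 0.49 and at -0.77 and 0.47.

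In healthy rats, RTD-1 was set against untreated naive rats, since there was no healthy saline group. None of the 6 genes was called on day 3 or day 5, where 11.8% and 13.5% of all genes were. The median of all genes was 0.30 and 0.34 with the deposited scaling, and 0.011 and 0.018 with TMM factors. All 10 healthy libraries were of high depth and none of the naive ones was, so depth and treatment cannot be told apart. Slc2a1 had the largest estimate, 1.09 on day 5 (95% interval 0.30 to 1.89; limma, Benjamini-Hochberg adjusted p = 0.0543), or 0.76 with TMM factors, with healthy replicates 3 and 4 above the other libraries of the group. It was called without naive replicate 3 (adjusted p = 0.0382) and without healthy replicate 1 (0.00958) or 5 (0.0285), whereas without healthy replicate 3, the library with the most Slc2a1, the estimate was 0.65 (adjusted p = 0.259). Ldha was above the naive mean in 5 of 5 healthy libraries on both days, with differences of 0.52 and 0.57, or 0.23 and 0.24 with TMM factors (adjusted p = 0.198 and 0.146 with the deposited scaling). With array weights Ldha was called on day 3 (0.63, adjusted p = 0.0119) and on day 5 (0.69, adjusted p = 0.00686). Pfkfb3 differed by 0.50 and 0.42, Vegfa by 0.47 and 0.12, Hk2 by 0.29 and 0.23 and Hif1a by 0.21 and 0.23. With TMM factors Hif1a and Hk2 were at or below 0 on both days (-0.083 and -0.11, and -0.010 and -0.096) and so was Vegfa on day 5 (-0.21).

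Ordered by mean level, the 10 groups gave a step without overlap in Hif1a and Pfkfb3 only. For Hif1a the order ran from RTD-1 day 1 (2238 ± 63.0, SD, n = 4) through saline day 1, PIA, RTD-1 day 3, saline day 3 and RTD-1 day 5 to saline day 5 (1556 ± 480.2, SD, n = 8). The healthy day 5 (482 ± 63.0, SD, n = 5), healthy day 3 and naive groups followed. Of the 9 steps between neighbours only the one from saline day 5 to healthy day 5 was larger than the larger SD of the pair and without overlap. For Pfkfb3 the order ran from healthy day 5 (1495 ± 742, SD, n = 5) and healthy day 3 to naive (1025 ± 317, SD, n = 4), and then to RTD-1 day 1 (392 ± 68.8, SD, n = 4), PIA, saline day 1 and the 4 groups of days 3 and 5. The step from naive to RTD-1 day 1 was the only one without overlap. Among those last groups, means were between 239 and 251.

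Hk2 was highest after RTD-1 for 1 day (458 ± 177, SD, n = 4), followed by PIA and saline day 1, the groups of days 3 and 5, and then the healthy groups and naive (98.4 ± 20.3, SD, n = 4). Its steps from PIA to saline day 1 and from saline day 3 to healthy day 3 were larger than the larger SD, and neighbouring ranges overlapped at every step. Vegfa was highest in healthy day 3 (699.5 ± 96.4, SD, n = 5), healthy day 5 and naive, and lowest in saline day 3 (245 ± 33.2, SD, n = 8). Ldha was highest in PIA and the groups of day 1 and lowest in RTD-1 day 5 (217 ± 58.9, SD, n = 8), with naive in eighth place by mean at 259.6. Slc2a1 was highest in healthy day 5 (204 ± 187, SD, n = 5) and lowest in saline day 3 (59.8 ± 16.6, SD, n = 8). No step of Ldha or Slc2a1 exceeded the larger SD of its pair.

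Over the 10 group means, 3 pairs of genes ran most alike, given as a description over points that share depth. Arthritic and other groups enter together, so r in part restates the difference between them. Pearson's r of the group means on the log2 scale was 0.97 for Hif1a and Hk2, 0.96 for Pfkfb3 and Vegfa and 0.82 for Ldha and Slc2a1. Hif1a was opposed to Pfkfb3 (r = -0.89) and Vegfa (r = -0.85), and Hk2 to the same pair (r = -0.78 and -0.72). Ldha followed Hif1a little (r = 0.27). The pairs were not sharply set apart, since Slc2a1 also had r = 0.57 with Pfkfb3 and 0.56 with Vegfa, and Hk2 had 0.41 with Ldha.

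Within groups, low values of several genes met in the same library. RTD-1 day 5 replicate 1 was the lowest of its group in Hk2, Ldha, Slc2a1, Pfkfb3 and Vegfa, and replicate 2 in Hif1a. Saline day 5 replicate 7 was the lowest of its group in Hk2, Ldha, Slc2a1, Pfkfb3 and Hif1a, and 24.5% of its deposited factor fell in genes, the smallest share of all 58 libraries. RTD-1 day 3 replicate 6, the library with the fewest reads, was the lowest of its group in Hk2, Ldha, Vegfa and Hif1a. The part of depth and of the share in genes in these values was not tested. How many of all genes were lowest in these libraries was not counted.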

How the data were processed

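The libraries came from a stranded total RNA kit and were sequenced in 75 nt single reads, per the labels' protocols. The submitters' processing notes name HISAT and DESeq with no version; genome build and annotation: not given in the sources used here. As judged from the file's own values, the deposited log2 values are logarithms of whole reads multiplied by 1 factor per library, and a count of 0 appears as 0.9. Of 16880 rows, 1 had no identifier (0.000384% to 0.0137% of reads) and was left out. Whole reads were recovered for 100% of values, to a relative tolerance of 0.001, and scaled to the median factor. Large counts meet that tolerance by rounding alone, so the share is informative for lower counts only. Genes were kept with 10 or more normalized reads in 4 or more libraries. A single limma model (version 3.58.1, R 4.3.3) of the 10 group means was fitted to log2(normalized reads + 1), two-sided, with trend and robust moderation and Benjamini-Hochberg adjustment. This test had been planned for reads divided by size factors, and was applied after undoing the logarithm. All 6 genes are named, and members, lists and tests were chosen with earlier results of these data known. The fit was tested on simulated data. Pathway and marker lists given by symbol, and genes of most similar pattern, were not analysed here, as the reference table (47357 genes) paired 0 identifiers with a symbol. No library repeated another of its group (lowest chi-square per degree of freedom 2.70). Alternatives were other pseudocounts, filters, scalings, weights, voom, thinned reads, a replicate block, sets of replicates, and single libraries left out.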

Additional observations from a re-analysis of the deposited data

Results flagged for a closer look

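Of 60 sets of values (6 genes in 10 groups) tested for a library far from its group, 6 were singled out, where chance gives about 1 in 20. Groups of 8 and of 4 or 5 libraries enter with their own limits. Hk2 in naive replicate 1 was 128.9 normalized reads, and the other naive libraries held 87.4 to 88.8. Hk2 after RTD-1 for 1 day was 192.1 in replicate 2, against 534.6 to 564.3 in the others. In the same library Slc2a1 was 75.55, against 126.9 to 131.0. Hk2 after saline for 3 days was 449.1 in replicate 7, against 138.4 to 271.6. Hk2 in healthy rats on RTD-1 for 5 days was 61.36 in replicate 3, against 119.3 to 140.0. Hif1a in naive replicate 3 was 634.5, against 332.2 to 374.7.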

How the results depend on the processing

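The number of the 6 genes called stayed within 1.5 times of the value given in 246 of 270 counts under other settings and in 282 of 300 with 1 library left out. Most comparisons had none of the 6 genes called, and a count of 0 that stayed 0 entered as within this limit. So did the loss of a gene from the larger counts. These shares therefore say little about how stable a call is. Changes of a gene turned direction in 41 of 1049 and 24 of 984 values, of which 0 belonged to a change that was called. TMM without the 3 saline libraries of high depth was added after the data were seen. The fewest reads of any of the genes in a library were 20, for Slc2a1. The cause was not tested for any change below.

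Counts against PIA changed as follows. For saline on day 3 the count was 1 (from 0) with TMM, with or without those 3 libraries, without them alone, with quantile normalization, voom and replicates 5 to 8, and 2 with array weights, and it ran from 0 to 1 with 1 library left out. For saline on day 5 it was 2 (from 1) with array weights and a filter of 50 normalized reads, 3 with replicates 5 to 8 and 0 with replicates 1 to 4, and ran from 1 to 2. For RTD-1 on day 3 it was 1 (from 0) with replicates 5 to 8. For RTD-1 on day 5 it was 1 (from 2) with TMM, quantile normalization, no filter, thinned reads and replicates 5 to 8, and ran from 1 to 4. It stayed 2 with replicates 1 to 4, where Hif1a was called in place of Pfkfb3 (adjusted p = 0.187). Array weights added Vegfa to the genes called for RTD-1 on day 5 (limma, adjusted p = 0.0379). In healthy RTD-1 against naive, day 3 gave 1 (from 0) with array weights, namely Ldha. Day 5 gave 1 (from 0) with a pseudocount of 8 and the filter of 50, 2 with array weights, namely Ldha and Slc2a1, and ran from 0 to 1. The change of the RTD-1 difference from day 3 to day 5 gave 1 (from 0) with replicates 1 to 4. Correlations of same-numbered deviations ran from -0.215 to 0.277, which cannot show whether the numbers mark a shared animal or day. RTD-1 libraries correlated best with the saline library of their own number in 3 of 8 on day 5, 2 of 8 on day 3 and 1 of 4 on day 1. For PIA with naive it was 1 of 4, and for either day 5 arm with PIA 0 of 4. With the replicate block the count was 1 (from 2) for RTD-1 day 5 against PIA and 1 (from 0) for healthy RTD-1 day 5 against naive.

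These log2 changes turned direction, none of them called with the deposited scaling and all libraries. With TMM and with quantile normalization, RTD-1 against saline on day 1 was -0.0823 and -0.0579 for Hif1a, -0.00448 and -0.0151 for Ldha, and -0.109 and -0.111 for Vegfa. Healthy RTD-1 against naive was -0.0833 and -0.0987 for Hif1a and -0.0101 and -0.0291 for Hk2 on day 3. On day 5 it was -0.107 and -0.149 for Hif1a, -0.0961 and -0.122 for Hk2, and -0.215 and -0.254 for Vegfa. Vegfa in saline day 5 against PIA was 0.0951 and 0.124. With TMM and no deep saline library it was 0.143, and RTD-1 against saline was -0.0717 for Hif1a, -0.0521 for Slc2a1 and -0.0324 for Vegfa on day 1 and 0.0051 for Ldha on day 5. With array weights, RTD-1 against saline on day 5 was 0.123 for Hif1a, 0.000259 for Slc2a1 and -0.0149 for Pfkfb3, on day 3 it was 0.013 for Pfkfb3, and Ldha in saline day 5 against naive was 0.0123. Pfkfb3 in RTD-1 against saline on day 5 was -0.0339 with thinned reads and -0.0115 without the deep saline libraries.

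With replicates 1 to 4, Ldha was 0.0122 in arthritic against healthy RTD-1 rats on day 3 and 0.306 in saline day 5 against naive, and Pfkfb3 was 0.0352 in RTD-1 against saline on day 3. With replicates 5 to 8, RTD-1 against saline was -0.0432 for Hk2 on day 3, and on day 5 it was 0.487 for Hif1a, 0.468 for Ldha, 0.269 for Slc2a1 and -0.0662 for Pfkfb3. The change between these days was 0.479 for Hif1a and 0.0367 for Hk2, and Slc2a1 in RTD-1 day 5 against naive was 0.0537. With 1 library left out, RTD-1 against saline ran from -0.00463 to 0.329 for Ldha and from -0.164 to 0.244 for Vegfa on day 1, and from -0.14 to 0.0365 for Pfkfb3 on day 3. On day 5 it ran from -0.156 to 0.101 for Hif1a, from -0.0887 to 0.0862 for Pfkfb3 and from -0.216 to 0.0629 for Slc2a1. Ldha in saline day 5 against naive ran from -0.291 to 0.0694, and Vegfa in healthy RTD-1 day 5 against naive from -0.00233 to 0.239.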
